A study of Mus musculus with 4 samples.

Results

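The 10 genes described here make up the core of the MHC class II presentation machinery of the mouse. They were chosen by name from the 32287 features counted on each capture area, and all 10 were detected on every area. H2-Aa and H2-Ab1 encode the chains of I-A, the class II molecule that shows peptides to CD4+ T-cells, and H2-Eb1 encodes the beta chain of I-E. Cd74 encodes the invariant chain, which fills the peptide groove of a new class II molecule and guides it to the endosome. There H2-DM, encoded by H2-DMa, H2-DMb1 and H2-DMb2, exchanges the remnant of the invariant chain for peptides, and H2-O, encoded by H2-Oa and H2-Ob, restrains H2-DM. Ciita encodes the class II transactivator, known as the master regulator of class II genes. In a lymph node, class II genes are used by B-cells, dendritic cells and macrophages, whereas a B-cell that becomes a plasma cell shuts down Ciita. H2-O is known mainly from B-cells and the thymus. Mice of the C57BL/6 strain make no I-E alpha chain, so the H2-Eb1 product has no partner at their cell surface.

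RNA was counted on Visium arrays. These carry spots with position barcodes under a tissue section, and every captured transcript is counted once through its molecular tag, or UMI. The cells above a spot, usually several, are counted together. The popliteal lymph nodes (PLNs) came from male C57BL/6 mice, either wild-type (WT) or carrying a TNF transgene (TNF-Tg). The WT area held 10 PLNs of 5 mice aged 5.5 months, and the Early area held 6 PLNs of 3 TNF-Tg mice with Early arthritis, also aged 5.5 months. Each of the 2 Advanced areas, called Advanced 1 and Advanced 2, held 6 PLNs of 3 TNF-Tg mice with Advanced arthritis, aged 8.5 to 9 months, so stage and age cannot be told apart within the TNF-Tg mice. The PLNs of an area were pooled, WT and Early were 1 area each, and no feature named TNF was counted, so the transgene itself was not checked here. The areas held 833 to 2015 spots and 1808678 to 5180493 UMIs. B-cell genes were present on every area, at 35.7 to 59.7 UMIs per 10000 over 16 genes, as was a list of 24 T-cell genes at 15.0 to 23.3. A level below is the UMIs of a gene per 10000 UMIs of the spots named.

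Most of the genes lie close together. In the GRCm38 annotation, 8 of the 10 fall within 224.3 kb of chromosome 17, from the start of H2-Oa at 34092340 to the end of H2-Eb1 at 34316674. Ciita lies on chromosome 16 from 10480059 to 10528418, and Cd74 lies on neither. The promoters of class II genes are known for conserved motifs called X and Y, which are bound by the factors that recruit the transactivator. The sequence before the start site is printed here because class II genes are known to share this regulator. The results below turn on how far the genes moved together. RefSeq promoters of GRCm38.p6 matched 7 of the 10 genes, each from 250 bases before to 50 bases after a start site. The motif letters were chosen after these promoters had been seen, and the Y motif (TGATTGG) and the X motif (AAC, any 3 bases, then TGATG) are in capitals, each line read 5′ to 3′ on the strand of its gene.

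H2-Aa, chr17:34287857-34287923, minus strand: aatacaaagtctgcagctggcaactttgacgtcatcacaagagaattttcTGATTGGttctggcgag
H2-Eb1, chr17:34305756-34305822, plus strand: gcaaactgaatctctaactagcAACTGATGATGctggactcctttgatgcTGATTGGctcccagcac
H2-DMb1, chr17:34153078-34153144, plus strand: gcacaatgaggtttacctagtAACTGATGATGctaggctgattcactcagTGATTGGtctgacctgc
H2-DMb2, chr17:34145107-34145173, plus strand: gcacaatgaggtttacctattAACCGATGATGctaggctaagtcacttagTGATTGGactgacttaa
H2-Ob, chr17:34238796-34238862, plus strand: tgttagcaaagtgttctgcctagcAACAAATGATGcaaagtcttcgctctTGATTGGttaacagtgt
H2-Oa, chr17:34092284-34092350, plus strand: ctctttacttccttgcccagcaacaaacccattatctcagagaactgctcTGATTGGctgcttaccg

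The Y letters stood in 6 of the 7 promoters, 38 to 85 bases before the start site, and in neither of the windows of H2-DMa. H2-Eb1, H2-DMb1, H2-DMb2 and H2-Ob also held the X letters, 15 to 18 bases before the Y letters. Of all 32851 promoters of the same length, counted on both strands, 7.82% held the Y letters and 0.615% the X letters. X followed by Y within 40 bases was found in 6 promoters (0.0183%), which were those of the 4 genes just named and of 1700048F04Rik and Cic. The windows of H2-DMb1 and H2-DMb2 are near copies of each other. A match of letters is a description and not a measured binding site.

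The levels of the genes differed between the capture areas, and 9 of the 10 were highest on the Early area. H2-Aa took 20.6 of every 10000 UMIs on WT, 25.6 on Early, 22.5 on Advanced 1 and 21.4 on Advanced 2. H2-Ab1 took 19.9, 24.3, 19.9 and 19.5 in the same order, and H2-Eb1 took 16.7, 19.5, 16.0 and 16.5. For these chains the Early area stood apart, while WT and the Advanced areas lay close together. Cd74 took 52.4 UMIs per 10000 on WT, 73.3 on Early, 58.8 on Advanced 1 and 60.2 on Advanced 2. The H2-DM genes H2-DMa (2.16, 2.74, 2.36 and 2.17) and H2-DMb1 (2.29, 2.85, 2.67 and 2.27) were likewise highest on Early, while the order of the other areas differed from gene to gene.

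H2-DMb2 was the exception. It took 5.86 UMIs per 10000 on WT, 7.04 on Early, 8.70 on Advanced 1 (95% Poisson interval 8.39 to 9.02) and 5.55 on Advanced 2 (5.29 to 5.81). The areas of the same stage were thus the highest and the lowest of the 4 for this gene. H2-DMb1 and H2-DMb2 are near-identical in parts: 37.6% of the 31-base words of H2-DMb1's longest transcript and 25.3% of those in its last 500 bases also occur in H2-DMb2. In the other direction 34.4% of the words of H2-DMb2 and 0.851% of those in its last 500 bases occur in H2-DMb1. The split of reads between them is uncertain. Intervals given for single areas cover counting error only.

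The H2-O genes differed most between WT and the TNF-Tg areas. H2-Oa took 1.04 UMIs per 10000 on WT, 1.95 on Early, 1.55 on Advanced 1 and 1.58 on Advanced 2. H2-Ob took 2.50, 4.69, 4.08 and 3.52. WT was the lowest area for both, and the level on Early was 1.87-fold that on WT for each, against 1.17-fold to 1.40-fold for H2-Aa, H2-Ab1, H2-Eb1 and Cd74. Ciita took 0.901 UMIs per 10000 on WT (163 UMIs), 1.44 on Early, 1.28 on Advanced 1 and 0.847 on Advanced 2, where its intervals on WT (0.768 to 1.05) and Advanced 2 (0.749 to 0.954) overlapped.

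**Figure D1:**
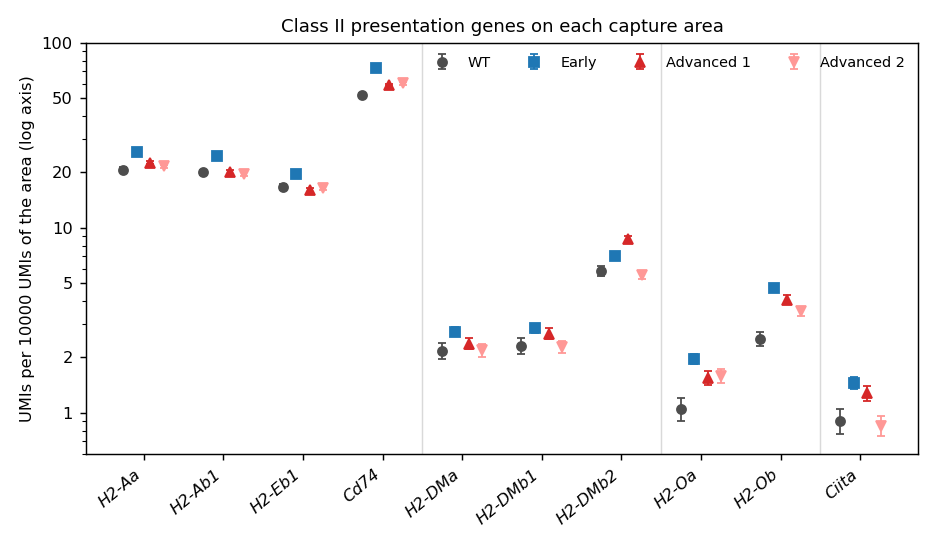
Level of each gene (UMIs per 10000 UMIs of the area, log axis) on the WT, Early, Advanced 1 and Advanced 2 areas, with 95% Poisson intervals. The blue Early squares are the highest point of every gene except H2-DMb2, for which Advanced 1 (8.70) lies above Early (7.04), and WT is the lowest for H2-Oa and H2-Ob.

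The question of disease stage was addressed by comparing the summed UMIs of the areas in a fit of 3 groups with edgeR's quasi-likelihood test, which had 1 residual degree of freedom from the 2 Advanced areas. Early and WT, 1 area each, were assumed to vary like them and were not tested against each other. Against Early, all 10 genes had a negative log2 difference in Advanced, with a median of -0.37 beside 0.01 over the 13102 genes tested. Cd74 alone was called, and fell by 0.38 on the log2 scale (SE 0.11, adjusted p = 0.0333 from edgeR), where 0.664% of all genes tested were called lower. The other 9 ranged from -0.06 for H2-DMb2 to -0.52 for Ciita (adjusted p = 0.225), and 8 of the 10 had an unadjusted p under 0.05 in edgeR. The Cd74 call was lost in DESeq2 (adjusted p = 1) and when only spots of at least 1000 UMIs (0.0886), rim spots or interior spots were summed.

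Against WT, none of the 10 genes was called in Advanced, where edgeR called 0.733% of all genes tested higher and 1.34% lower. An unadjusted p under 0.05 was reached by H2-Oa and H2-Ob in edgeR, and DESeq2 called none. H2-Ob had the largest log2 difference at 0.49 (SE 0.18, adjusted p = 0.164 from edgeR), followed by H2-Oa at 0.47 (SE 0.21, adjusted p = 0.327), while H2-Aa, H2-Ab1, H2-Eb1 and Cd74 lay between -0.15 and 0.07. On the Early area without a test, the Poisson intervals of all 10 genes lay above those on WT.

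The cell makeup of the areas moved with these levels. The B-cell genes took 35.7 UMIs per 10000 on WT, 59.7 on Early, 52.7 on Advanced 1 and 46.9 on Advanced 2. A list with 7 genes of follicular dendritic cells took 24.4, 74.6, 50.7 and 44.5. Fcer2a was on both lists, so they are not separate measures. The 12 macrophage genes went the other way, at 63.2 on WT and 43.3, 31.8 and 42.4 on the TNF-Tg areas. In such pooled tissue, fewer cells of a type and less RNA per cell cannot be told apart. Set against the B-cell genes, a ratio chosen after the levels had been seen, the H2-O genes were nearly level: H2-Oa and H2-Ob together gave 9.94 UMIs per 100 UMIs of B-cell genes on WT, 11.1 on Early, 10.7 on Advanced 1 and 10.9 on Advanced 2. By the same measure H2-Aa, H2-Ab1, H2-Eb1 and Cd74 together gave 307 on WT against 239, 223 and 251. The order thus turned, with WT the highest area for the class II chains and Cd74 and the lowest for H2-O. On the Early area, the 4 pieces of tissue of at least 20 spots held H2-Ob at 3.78, 4.57, 6.05 and 6.99 UMIs per 10000, with B-cell genes at 49.4, 56.2, 82.3 and 87.9 in the same pieces. No table assigned pieces to PLNs, and these values are a description.

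Distance from the tissue edge was examined next. A spot was placed on the rim when fewer than 6 of its neighbours lay under tissue and in the interior otherwise. The PLNs of an area often touched: on WT, 828 of 833 spots formed a single connected piece, as did 2013 of 2015 on Advanced 1, so rim and interior describe the merged tissue and not places within a node. Rim spots were deep (medians of 2113 to 5541 UMIs) and interior spots shallow (140.5 to 250.5), and the rim held 47.9% to 79.3% of the UMIs of an area. The class II chains and 1 subunit each of H2-DM and H2-O were higher at the rim. In UMIs summed per area and position, with the area as a block, 5 of the 10 genes were called higher at the rim and none lower, where 4.14% of the 11675 genes tested were called higher and 3.49% lower. All 10 had a positive log2 difference in the fit, with a median of 0.32 beside 0.00 over all genes.

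H2-Oa, the alpha chain of H2-O, took 1.09 UMIs per 10000 at the WT rim against 0.883 in the interior, 2.11 against 1.46 on Early, 1.64 against 1.45 on Advanced 1 and 1.98 against 0.864 on Advanced 2. The rim was higher on each area, with the widest gap on Advanced 2, and rim and interior values overlapped across areas. Its log2 difference was 0.65 (SE 0.14, adjusted p = 0.00438, edgeR). H2-DMa, the alpha chain of H2-DM, took 2.31 at the rim against 1.58 in the interior on WT, 2.93 against 2.15 on Early, 2.55 against 2.19 on Advanced 1 and 2.61 against 1.38 on Advanced 2. The rim was again higher on all 4 areas, by 0.61 on the log2 scale (SE 0.12, adjusted p = 0.00234, edgeR).

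The class II chains rose less. H2-Eb1 averaged 18.4 ± 1.43 UMIs per 10000 at the rim and 14.4 ± 1.73 in the interior (SD, n = 4 areas), a log2 difference of 0.45 (adjusted p = 0.00671, edgeR). H2-Aa averaged 23.9 ± 2.12 and 19.2 ± 2.67 (0.40, adjusted p = 0.0122, edgeR), and H2-Ab1 22.0 ± 2.49 and 18.3 ± 1.47 (0.34, adjusted p = 0.0357, edgeR). Each was higher at the rim on 4 of 4 areas. Cd74 was also higher on 4 of 4 areas, at 64.5 ± 8.98 against 55.6 ± 8.15, but its difference of 0.30 missed the threshold (adjusted p = 0.0534, edgeR).

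The partners of the called subunits did not share the pattern to the same degree. H2-Ob, which pairs with H2-Oa, averaged 3.78 ± 1.04 at the rim and 3.57 ± 0.616 in the interior (log2 difference 0.16, adjusted p = 0.439, edgeR) and was lower at the rim on WT. In spots of at least 1000 UMIs, however, H2-Ob was higher at the rim on 4 of 4 areas, with a mean log2 ratio of 0.23. H2-DMb1 was higher at the rim on 4 of 4 areas over all spots, by 0.21 in the fit (adjusted p = 0.237, edgeR). H2-DMb2 differed by 0.07 in the fit, although its plain rim to interior ratio averaged -0.02 on the log2 scale and was negative on WT and Advanced 1. The ratio of H2-Ob to H2-Oa was 2.23 ± 0.300 at the rim and 3.16 ± 0.498 in the interior and was lower at the rim on 4 of 4 areas. A two-sided exact sign-flip test of this ratio gave p = 0.13, the smallest that 4 areas allow, and in spots of at least 1000 UMIs the ratio was higher at the rim on 1 area. H2-Oa overlaps the antisense gene BC051537 and H2-DMa overlaps Brd2 on the opposite strand, and whether the counting used strand is not given in the sources used here. Ciita differed by 0.21 (adjusted p = 0.324, edgeR).

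These calls depended on depth and on single areas. In spots of at least 1000 UMIs, H2-Eb1, H2-DMa and H2-Oa remained called, while H2-Aa (adjusted p = 0.0557, edgeR) and H2-Ab1 (0.115) were not. Without Advanced 2 no gene was called, with H2-Oa at 0.44 and H2-DMa at 0.48, and without Early H2-Oa and H2-DMa were the 2 that passed. Cd74 was called as well without WT (0.33, adjusted p = 0.0265, edgeR), without immunoglobulin genes (0.0411) and without the filter on low counts (0.0119). Other cells moved with position as well. B-cell genes were higher at the rim on all areas (36.0 against 34.5 on WT and 53.1 against 35.5 on Advanced 2), T-cell genes were lower at the rim on all areas, and macrophage genes were higher at the rim on WT (68.3 against 43.8) and lower on the 3 TNF-Tg areas. Their part in the rim differences was not tested.

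**Figure D2:**
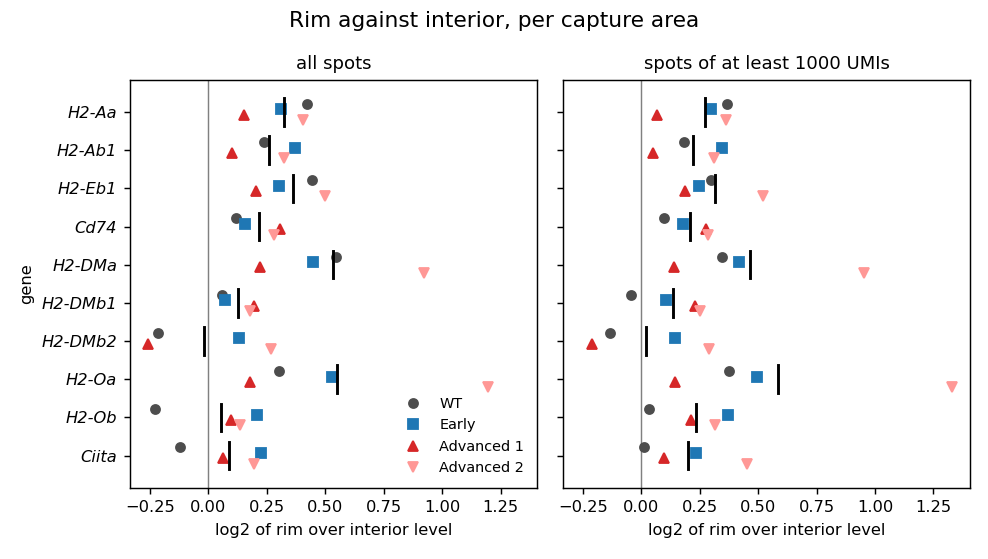
Log2 ratio of the rim level to the interior level of each gene on the 4 areas, over all spots (left) and over spots of at least 1000 UMIs (right), with the mean over areas as a black bar. H2-DMa and H2-Oa lie farthest to the right, mainly through Advanced 2 (0.92 and 1.19 over all spots), while H2-DMb2 is negative on WT and Advanced 1.

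The level of the class II chains with Cd74 fell from the rim inwards over the first 3 rings on every area. Spots were numbered in rings from the tissue edge, with ring 1 the rim. H2-Aa, H2-Ab1, H2-Eb1 and Cd74 together took 148 UMIs per 10000 in ring 1, 142 in ring 2, 115 in ring 3 and 104 in ring 4 on the Early area. On Advanced 2 the values were 127, 124, 91.7 and 91.6, and on Advanced 1 they were 127, 117, 102 and 105. On all 3 TNF-Tg areas the step between rings 2 and 3 was the largest of the first 3. The WT area gave 113, 101, 89.5 and 78.5. H2-DMa, H2-DMb1 and H2-DMb2 together showed no fall on WT (10.3, 10.2, 10.3 and 11.5) or Advanced 1 (13.3, 14.1, 13.5 and 13.8), while on Advanced 2 they went from 10.9 in ring 1 to 6.03 in ring 6 and beyond.

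**Figure D3:**
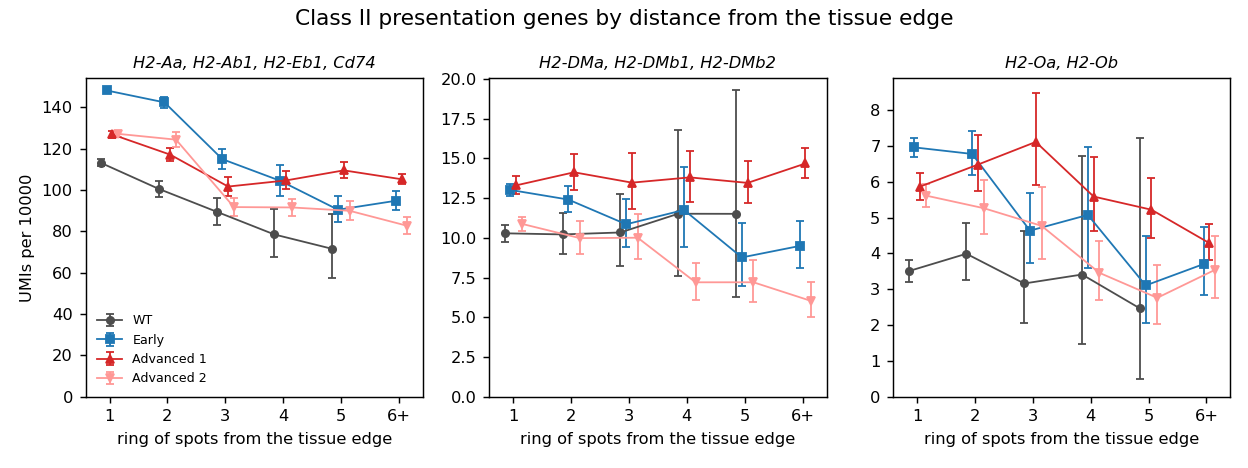
UMIs per 10000 by ring of spots from the tissue edge (ring 1 is the rim; 6+ is ring 6 and beyond, left out for WT where it held 6 spots), for the class II chains with Cd74, for H2-DM and for H2-O, with 95% Poisson intervals. The chains with Cd74 fall inwards on every area, from 148 to 104 over the first 4 rings on Early, whereas H2-DM stays near 13.3 to 14.1 over these rings on Advanced 1.

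To see which cells the genes moved with, the 2057 spots of at least 1000 UMIs were ordered within each area by the share of their UMIs on B-cell genes. Spots above the 75th percentile are called B-cell-high and those at or under the 25th B-cell-low. All 10 genes were called higher in B-cell-high spots, where 10.2% of the 9948 genes tested were called higher and 13.2% lower, with a median log2 difference of 0.90 beside 0.02 over all genes. For each of the 10, every B-cell-high value lay above every B-cell-low value.

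The H2-O genes moved most. H2-Ob took 0.822 UMIs per 10000 in B-cell-low and 5.06 in B-cell-high spots on WT, 1.92 and 9.10 on Early, 2.29 and 6.41 on Advanced 1, and 1.79 and 6.61 on Advanced 2. Its mean ratio was 4.17-fold and its log2 difference in the fit 1.89 (SE 0.17, adjusted p = 1.54e-07, edgeR). H2-Oa took 0.568 and 1.74 on WT, 0.840 and 3.30 on Early, 1.17 and 2.13 on Advanced 1, and 0.674 and 3.17 on Advanced 2. The gap was narrowest on Advanced 1 for both chains, and H2-Oa differed by 1.54 on the log2 scale (SE 0.19, adjusted p = 1.2e-05, edgeR). Per 100 UMIs of B-cell genes, the H2-O genes together gave 11.0 to 14.2 in B-cell-low spots and 9.28 to 11.3 in B-cell-high spots. By this measure H2-Oa fell on each area, from 4.489 to 2.37 on WT and from 3.402 to 3.016 on Early. It went from 4.015 to 2.334 on Advanced 1 and from 3.902 to 3.366 on Advanced 2. H2-Ob rose on WT and Early and fell on both Advanced areas, from 10.35 to 7.022 on Advanced 2. Because the same B-cell genes set the bins, these ratios do not show which cells held H2-O.

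H2-DMb2 and Ciita came next. H2-DMb2 took 2.17 and 9.41 UMIs per 10000 on WT, 4.11 and 10.5 on Early, 6.78 and 10.5 on Advanced 1, and 3.06 and 9.61 on Advanced 2. The B-cell-high spots were alike on all areas, and the areas differed in the B-cell-low spots, where Advanced 1 stood highest (log2 difference 1.27, adjusted p = 3.44e-05, edgeR). Ciita, the regulator, averaged 1.67 ± 0.538 in B-cell-high and 0.722 ± 0.228 in B-cell-low spots (SD, n = 4 areas; 1.12, adjusted p = 0.000211, edgeR). Cd74 took 40.7 and 77.6 on WT, 49.4 and 111 on Early, 46.8 and 86.0 on Advanced 1, and 40.1 and 99.3 on Advanced 2. It thus about doubled on each area, by a mean of 2.10-fold (0.93, SE 0.13, adjusted p = 3.19e-05, edgeR).

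H2-DMb1 (log2 difference 0.87) and H2-DMa (0.62) were followed by the class II chains, which moved least. H2-Eb1 averaged 21.5 ± 2.13 in B-cell-high and 13.8 ± 1.42 in B-cell-low spots (0.50, adjusted p = 0.00865, edgeR), H2-Aa 28.2 ± 2.40 and 18.5 ± 3.44 (0.48, adjusted p = 0.0139), and H2-Ab1 26.0 ± 2.40 and 17.3 ± 2.07 (0.45, adjusted p = 0.0169). Against the B-cell genes themselves, H2-Aa, H2-Ab1, H2-Eb1 and Cd74 together gave 4.83 ± 1.39 UMIs per UMI of B-cell genes in B-cell-low and 1.85 ± 0.173 in B-cell-high spots. The bins were set by the same B-cell genes, so any gene that rose less than they did gives a higher ratio in B-cell-low spots. The ratio therefore does not show which cells held these genes. In interior spots alone the calls of H2-Aa, H2-Ab1, H2-Eb1 and H2-DMa were lost, as they were without Advanced 2. Without Early the 3 chains were lost (adjusted p = 0.0548 to 0.0999, edgeR), and without WT H2-Aa was (0.0503). DESeq2 did not call H2-Ab1, and with spots thinned to 1000 UMIs H2-Aa and H2-DMa were not called. The other 6 genes were called in all 14 alternatives.

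The bins differed in more than B-cells. Macrophage genes took 45.0 to 103 UMIs per 10000 in B-cell-low and 10.3 to 27.9 in B-cell-high spots over the areas. Immunoglobulin genes took 6.97% to 14.1% of the UMIs of B-cell-low and 2.24% to 3.11% of those of B-cell-high spots. Rim spots made up 20.0% to 65.2% of B-cell-low and 51.7% to 80.8% of B-cell-high spots. The part of each in the differences was not tested beyond the alternatives within the rim, within the interior and without immunoglobulin genes.

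**Figure D4:**
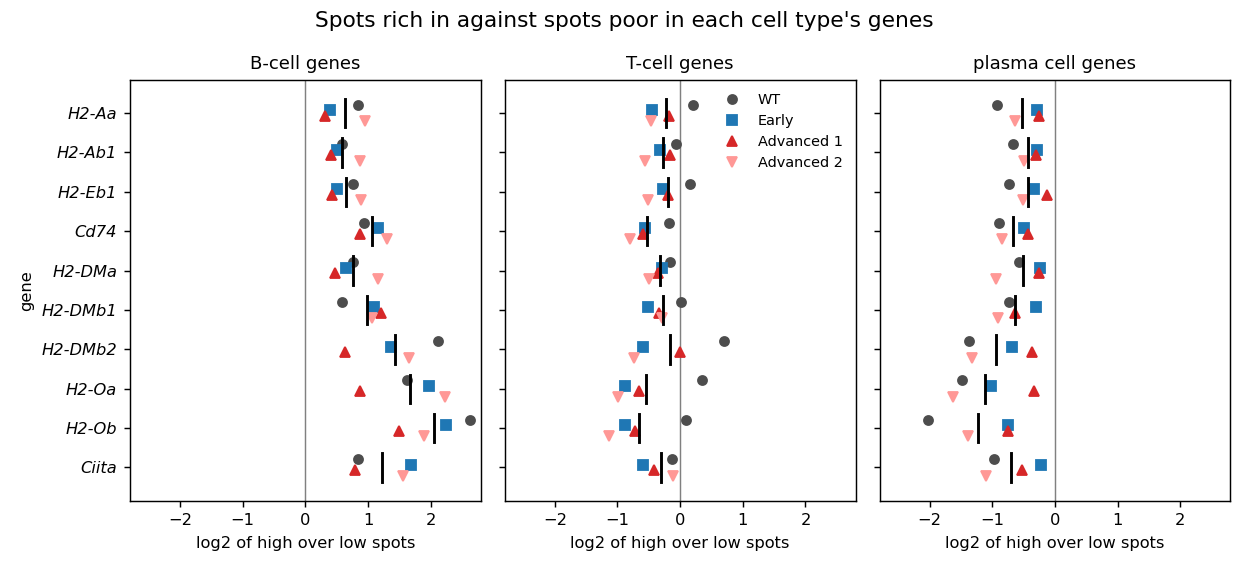
Log2 ratio of the level in spots rich in the genes of a cell type to that in spots poor in them, for B-cell, T-cell and plasma cell genes, on the 4 areas, with the mean over areas as a black bar. All points of the B-cell panel lie right of 0, with H2-Ob highest (1.49 to 2.62), all points of the plasma cell panel lie left of 0, and in the T-cell panel WT lies to the right of the TNF-Tg areas for every gene except Ciita, though near Advanced 1 for H2-Ab1.

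The balance between the genes changed along the B-cell bins. The ratio of H2-O to H2-DM UMIs went from 0.236 in B-cell-low to 0.443 in B-cell-high spots on WT, from 0.341 to 0.693 on Early, from 0.326 to 0.487 on Advanced 1 and from 0.395 to 0.594 on Advanced 2. It was higher in B-cell-high spots on each area, by 0.78 ± 0.23 on the log2 scale (SD, n = 4; exact sign-flip test p = 0.13, the smallest possible), although the values of the bins overlapped between areas. The ratio of Cd74 to the 3 class II chains went from 0.922 to 1.06 on WT, from 0.855 to 1.39 on Early, from 0.899 to 1.27 on Advanced 1 and from 0.912 to 1.21 on Advanced 2. B-cell-low spots were alike on the 4 areas in this ratio, all B-cell-high values lay above them, and the difference was smallest on WT (0.45 ± 0.21; exact p = 0.13). The ratio did not climb evenly: on WT it was 0.822 and 0.794 in the bins between, and it dipped to 0.861 on Advanced 1 and 0.877 on Advanced 2 in the second bin.

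**Figure D5:**
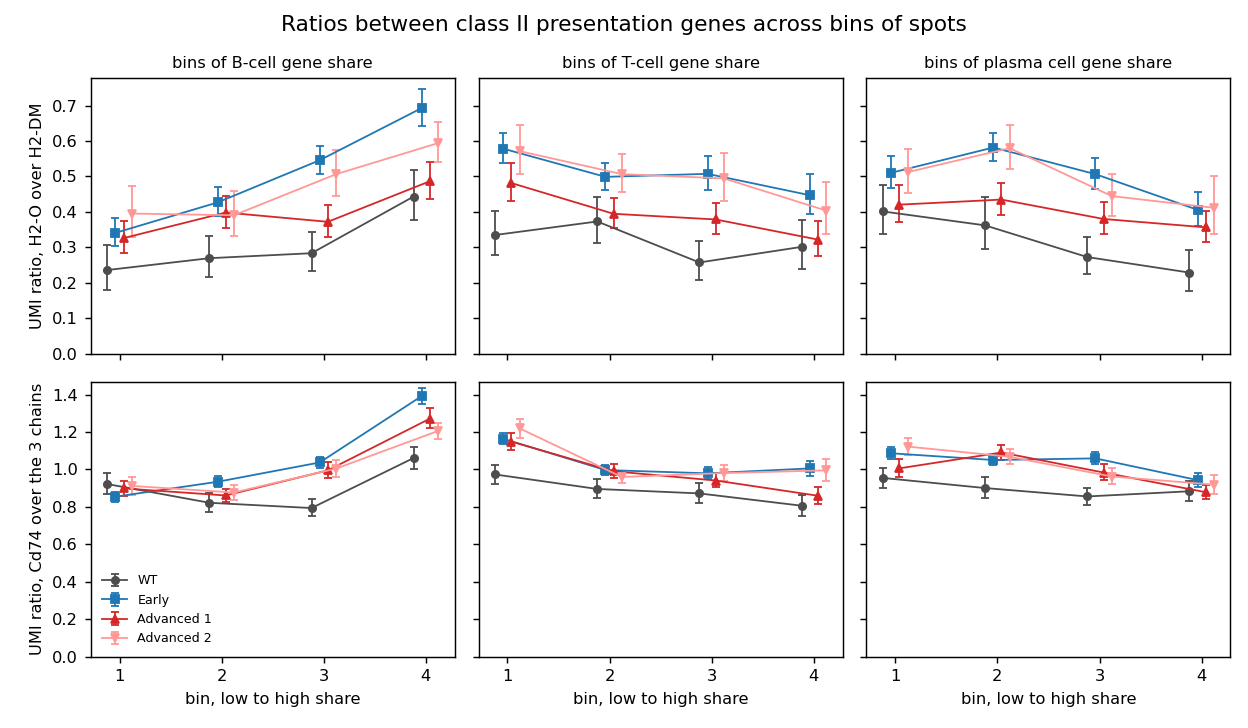
UMI ratio of H2-Oa and H2-Ob to H2-DMa, H2-DMb1 and H2-DMb2 (top) and of Cd74 to H2-Aa, H2-Ab1 and H2-Eb1 (bottom) over 4 bins of spots from low to high B-cell, T-cell or plasma cell gene share, with 95% intervals for counting error. Both ratios are higher in the last B-cell bin than in the first on each area, with dips between, and WT is the lowest area in the B-cell bins of the top row, at 0.236 and 0.443 in the first and last bin.

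The same spots were then ordered by T-cell genes. None of the 10 genes was called in T-cell-high against T-cell-low spots, where edgeR called 0.572% of the 9269 genes tested higher and 0.55% lower and DESeq2 called none of the 10. All 10 had a negative log2 difference, with a median of -0.37 beside 0.01 over all genes, and 7 had an unadjusted p under 0.05. H2-Ob was nearest to the threshold at -0.75 (SE 0.18, adjusted p = 0.0669, edgeR), followed by Cd74 at -0.60 (adjusted p = 0.116) and H2-Oa at -0.68 (adjusted p = 0.143). Without the WT area, all 3 were called, with H2-Ob at -0.94 (adjusted p = 4e-05), H2-Oa at -0.88 and Cd74 at -0.68.

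WT differed in sign from Early for 6 of the 10 genes in this comparison, and that difference was not tested. H2-Ob took 1.96 UMIs per 10000 in T-cell-low and 2.09 in T-cell-high spots on WT, against 6.00 and 3.25 on Early, 4.90 and 2.96 on Advanced 1, and 5.01 and 2.29 on Advanced 2. H2-DMb2 took 3.73 and 6.06 on WT and 8.94 and 5.92 on Early. The B-cell genes had the same turn: they took 26.4 in T-cell-low and 39.3 in T-cell-high spots on WT, but 83.0 and 43.1 on Early, 69.1 and 41.7 on Advanced 1, and 71.1 and 32.5 on Advanced 2. Macrophage genes took 106 in T-cell-low and 27.4 in T-cell-high spots on WT and went from low to high values on the TNF-Tg areas (20.0 to 48.3 on Early). Their part in the differences was not tested. The ratio of Cd74 to the class II chains was lower in T-cell-high spots on all 4 areas, WT included (0.973 and 0.807), by -0.30 ± 0.09 on the log2 scale (n = 4, exact p = 0.13).

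In spots ordered by 12 plasma cell genes, the class II genes went down as plasma cell genes went up. Of the 10, 6 were called lower in plasma-high than in plasma-low spots, where 1.93% of the 9478 genes tested were called lower and 2.55% higher. All 10 had a negative log2 difference and a lower value in plasma-high spots on 4 of 4 areas, with a median of -0.45 beside -0.01 over all genes. H2-Ob took 3.91 UMIs per 10000 in plasma-low and 0.957 in plasma-high spots on WT, 4.84 and 2.88 on Early, 4.50 and 2.67 on Advanced 1, and 4.45 and 1.69 on Advanced 2. Plasma-low spots were alike across areas for this gene, and no plasma-high value reached them (-0.97, SE 0.14, adjusted p = 8.95e-06, edgeR).

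H2-Oa fell by 0.88 on the log2 scale (adjusted p = 0.000332, edgeR) and H2-DMb2 by 0.74 (adjusted p = 0.000155, edgeR). Cd74 took 70.6 UMIs per 10000 in plasma-low and 38.0 in plasma-high spots on WT, 78.5 and 55.4 on Early, 62.0 and 46.1 on Advanced 1, and 76.3 and 42.6 on Advanced 2. The bins of Cd74 did not overlap across areas, and the gap was widest on WT and Advanced 2 (-0.49, SE 0.09, adjusted p = 0.00054, edgeR). H2-DMb1 (-0.45, adjusted p = 0.0305) and H2-Aa (-0.35, adjusted p = 0.0424) passed narrowly, and H2-Ab1, H2-Eb1, H2-DMa and Ciita had values from -0.25 to -0.45 that did not pass (adjusted p = 0.102 to 0.208, edgeR). Ciita, which plasma cells are known to shut down, averaged 0.805 ± 0.288 in plasma-high and 1.25 ± 0.141 in plasma-low spots (SD, n = 4 areas; adjusted p = 0.102, edgeR). It was called lower in only 2 of 15 alternatives. These set spots above the median against the rest (-0.35, adjusted p = 0.0484, edgeR) or binned spots by IgG heavy chain genes (-0.74, adjusted p = 0.00744, edgeR). In the IgG bins 7 of the 10 genes were called, where 431 of the 9929 genes tested were called lower and 585 higher.

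Immunoglobulin genes took 11.0% to 18.7% of the UMIs of plasma-high and 1.91% to 3.38% of those of plasma-low spots. With immunoglobulin genes left out of the fit the same number, 6, was called. The levels per area count immunoglobulin genes in the total, which lowers the level of every other gene in plasma-high spots. These levels were not redone without them, and some gaps were small, such as H2-Eb1 on Advanced 1 (log2 ratio -0.13). B-cell genes were lower in plasma-high spots on each area (21.2 against 50.5 on WT, 37.2 against 62.6 on Early), and their part was not tested. The UMIs of H2-Aa, H2-Ab1, H2-Eb1 and Cd74 per UMI of B-cell genes were higher in plasma-high spots on 4 of 4 areas. This ratio averaged 3.17 ± 0.559 there and 2.45 ± 0.287 in plasma-low spots (SD, n = 4 areas). In interior spots alone none of the 10 was called, with H2-Ob at -0.74 (adjusted p = 0.187, edgeR) and H2-Aa at -0.04, and without Advanced 2 H2-DMb2, H2-Oa and H2-Ob were left. Without WT or without Early, H2-Aa and H2-DMb1 were lost, and without Advanced 1 H2-DMb1 was (-0.44, adjusted p = 0.123, edgeR).

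The genes with the most similar pattern were found by the correlation of log2(UMIs per 10000 + 1) over the 273 to 604 spots of at least 1000 UMIs of an area, averaged over the 4 areas, among 1451 genes with at least 1 UMI per 10000 on each. Spots of an area share a library and neighbouring cells, and the values are a description. The sum of H2-Aa, H2-Ab1, H2-Eb1 and Cd74 was most like Cd79a, a chain of the B-cell receptor (mean r = 0.40, from 0.31 to 0.48 over the areas), and Cxcl13, the chemokine that draws B-cells into follicles (0.39, from 0.29 to 0.50). Cd22, Ighd, Cd79b, Rpl21, Fcer2a, Rpl4 and Fth1 were also among the 10 most similar genes, down to a mean r of 0.29. Beside them, the 95th percentile over the 1451 genes was 0.159 and the median 0.018. The most opposed gene was Ighg2b, an IgG heavy chain (mean r = -0.44), preceded by Igkc, Ighg2c, Jchain and Ighm. For H2-Oa and H2-Ob together the 5 most similar genes included Cd79a (0.34), Ighd, Cd22 and Rpl21. H2-DMa had the weakest likeness to the 4 class II genes among H2-DMa, H2-DMb1, H2-DMb2, H2-Oa and H2-Ob, at 0.10, against 0.36 for H2-Ob, and Ciita was not ranked.

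As a list, genes that work with class II molecules did not share the rise of the 10 in B-cell-high spots. A list of class II pathway partners held the promoter factors of the Rfx and Nfy families, endosomal proteases, co-stimulatory molecules and the interferon gamma route, 26 of whose symbols were counted. At the rim 1 of 25 tested was called higher, the protease Ctsd (0.43, adjusted p = 0.012, edgeR), and the list's median was 0.08. That count is near the share over all genes tested, of which 4.14% were called higher. In B-cell-high spots 3 of 23 were called higher and 7 lower (median -0.16), beside 10.2% and 13.2% of all genes tested. The largest differences were those of the proteases Ctsb (-1.59, adjusted p = 5.2e-07, edgeR) and Lgmn (-1.57, adjusted p = 2.41e-06) and of March8, a ubiquitin ligase (-1.25, adjusted p = 0.00386). March8 rested on few UMIs, from 37 on the whole WT area to 123 on Early. None was called in the T-cell or plasma cell bins or in Advanced against Early. In Advanced against WT 3 of 25 were called lower, beside 1.34% of all genes tested. These were Lgmn (-1.24, adjusted p = 4.17e-11, edgeR), Ctsb (-0.79, adjusted p = 9.51e-07) and Ifi30, a thiol reductase of the endosome (-0.55, adjusted p = 0.0401). Macrophages are also known for these proteases. The macrophage genes were lower in B-cell-high spots and on the Advanced areas than on WT, and their part was not tested.

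The 15 genes of class I presentation served as a second list. In B-cell-high spots 6 of them were called lower and none higher (median -0.30), beside 13.2% and 10.2% of all genes tested. Among the 6 were Pdia3 (-0.86, adjusted p = 0.000488, edgeR), B2m, the light chain of class I (-0.66, adjusted p = 0.000824), and the chaperone Canx (-0.62, adjusted p = 0.00298). At the rim, where 3.49% of all genes tested were called lower, only Nlrc5 of this list was called, at -0.50 (adjusted p = 0.00992, edgeR). Nlrc5 is the class I counterpart of Ciita. In plasma-high spots Pdia3 was called higher (0.47, adjusted p = 0.0191, edgeR), and in Advanced against WT Calr was called lower (-0.75, adjusted p = 0.00065). Over all genes tested, 2.55% were called higher in plasma-high spots and 1.34% lower in Advanced against WT. No class I gene was called in the T-cell bins or in Advanced against Early.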

How the data were processed

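PLN sections on 4 Visium capture areas were analysed. Per the labels and the study's methods, the authors counted UMIs with Space Ranger 1.1.0 against the mouse genome (GRCm38), kept spots under tissue and deposited raw UMI counts per gene and spot without normalization; their later work in Seurat 4.0.3 and R 4.1.1 was not used. Rim, ring and bins were set here from spot positions and gene lists. UMIs were summed per area and level and tested with edgeR 4.0.16 (R 4.3.3; TMM, filterByExpr, quasi-likelihood test, Benjamini-Hochberg adjustment over all genes tested, threshold 0.05). Genes of a binning list were left out of its fit. Spots were not treated as replicates, and the unit was the capture area. The edgeR p-values rest on a spread between areas that is estimated with information from all genes tested. They therefore do not measure a gene's own spread alone. For H2-Ob in the plasma cell bins, log2 ratios of single areas ran from -2.03 to -0.75, beside a fitted SE of 0.14. In the fits of conditions only the 2 Advanced areas gave a spread between areas, and no p-value measures the spread between WT or Early areas. Levels and log2 ratios per area are on the scale of UMIs per 10000, whereas fitted differences carry TMM scaling. Ratios were tested by exact two-sided sign flips over areas. DESeq2 1.42.0, other depths (500 and 2000 UMIs), thinning to 1000 UMIs, rim or interior spots alone, bins by IgG heavy chain genes, and leaving out each area were alternatives. The rim and condition fits were also run on simulated counts, drawn with the same spread for every gene. These cannot show how the fits behave where genes differ in spread between areas, and the bin fits were not simulated. The 10 genes are named with all values, partner genes as the 3 largest called differences per comparison, and similar genes by rank, of which not all are reported here. The members, lists and tests were chosen with earlier results of these data known. H2-DMb1 and H2-DMb2 share sequence. Depth was 1808678 UMIs (WT), 5180493 (Early), 3378219 and 3198238 (Advanced 1 and 2), and Poisson intervals cover counting error only.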

Additional observations from a re-analysis of the deposited data

Results flagged for a closer look

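A gene was singled out where every area of one group moved one way and every area of another group the opposite way. WT was 1 area, and none of these differences between groups was tested. All values are log2 ratios of levels on single areas.

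From interior to rim, H2-Ob had -0.2301 on WT against 0.2098 on Early, 0.0972 on Advanced 1 and 0.1349 on Advanced 2. Ciita had -0.1222 on WT against 0.2265 on Early, 0.0620 on Advanced 1 and 0.1931 on Advanced 2. H2-DMb2 had -0.2164 on WT against 0.1326 on Early. In spots of at least 1000 UMIs, H2-Ob and Ciita were positive on all 4 areas, WT included, so their contrast between WT and the TNF-Tg areas was present only with shallow spots counted.

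From T-cell-low to T-cell-high spots, 6 of the 10 genes were positive on WT and negative on Early. H2-Aa had 0.1974 on WT, -0.4532 on Early, -0.1848 on Advanced 1 and -0.4584 on Advanced 2, and H2-Eb1 had 0.1563, -0.2678, -0.1882 and -0.5052 in the same order. H2-DMb1 had 0.0132, -0.5116, -0.3307 and -0.2868, with a WT value near 0. H2-Oa had 0.3532, -0.8849, -0.6513 and -0.9982, and H2-Ob had 0.0986, -0.8841, -0.7271 and -1.1285. H2-DMb2 had 0.7001 on WT and -0.5963 on Early, with Advanced 1 near 0. The B-cell genes turned in the same way between WT and the TNF-Tg areas, and their part in this was not tested.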

How the results depend on the processing

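No paired analysis was possible because the groups share fewer than 2 replicate numbers; contrasts within an area kept the area as a block. Counts of members called, main and alternative, were as follows. At the rim 5 were higher, 3 with spots of at least 1000 UMIs, and 0 to 6 with 1 area left out. In the B-cell bins 10 were higher, 6 in interior spots and 6 to 10 with 1 area left out. In the T-cell bins 0 were lower, 3 without the filter on low counts, 1 without immunoglobulin genes, 2 with thinned spots, 1 when all spots above the median were set against the rest, and 0 to 3 with 1 area left out. In the plasma cell bins 6 were lower, 3 with thinned spots, 0 in interior spots and 3 to 5 with 1 area left out. In Advanced against Early 1 was lower, 2 without immunoglobulin genes and 0 with DESeq2, spots of at least 1000 UMIs, rim spots or interior spots. In Advanced against WT 0 were called in each of the 8 tested alternatives. Leaving out an Advanced area left no residual degree of freedom and gave values without a test. Over all genes, calls ranged from 272 to 1119 (main 890) at the rim, 343 to 2523 (2330) in the B-cell, 4 to 598 (104) in the T-cell and 26 to 1016 (425) in the plasma cell bins, 7 to 171 (152) in Advanced against Early and 38 to 280 (272) in Advanced against WT.

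Of the log2 differences of members under alternatives with a test, 13 changed sign, none of them called. H2-DMb2 at the rim became -0.0006 without Early and -0.0143 without Advanced 2, and was 0.1589 without Advanced 1. In interior spots, H2-DMb1 in the T-cell bins became 0.0674, H2-DMa and H2-DMb1 in the plasma cell bins 0.0577 and 0.0074, and H2-DMb2 in Advanced against Early 0.1069. In Advanced against WT, H2-DMb1 became 0.0048 without the filter, H2-Aa 0.0234, H2-DMa 0.0654 and H2-DMb1 0.0798 in rim spots, and H2-Aa 0.1834, H2-Eb1 0.0263 and H2-DMa 0.0992 in interior spots. Among the values without a test, H2-DMb2 in Advanced against Early became 0.2127 without Advanced 2. In Advanced against WT, H2-DMb2 became -0.1785 and Ciita -0.1883 without Advanced 1, and H2-DMa 0.0034 and H2-DMb1 0.0937 without Advanced 2. The causes were not tested. The ratios between members kept their direction at 500 and 2000 UMIs. Ciita and H2-Oa rested on few UMIs (163 and 189 on WT).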

Other observations

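The same spots were also ordered by macrophage and by dendritic cell genes, which was chosen after the data had been seen and is given without a test. All 10 genes were lower in macrophage-high than in macrophage-low spots on each area. H2-Ob took 4.68 UMIs per 10000 in macrophage-low and 1.40 in macrophage-high spots on WT, 8.37 and 2.43 on Early, 6.21 and 2.75 on Advanced 1, and 6.34 and 1.78 on Advanced 2. The class II chains differed far less: H2-Aa took 24.0 and 19.0 on WT, 28.5 and 22.8 on Early, 24.7 and 23.3 on Advanced 1, and 29.2 and 17.9 on Advanced 2. B-cell genes were lower in the macrophage-high spots (62.0 and 19.7 on WT, 95.8 and 34.5 on Early).

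Spots rich in dendritic cell genes, a cell type known for its high class II level, did not stand out in the class II chains. H2-Aa averaged 22.0 ± 1.54 UMIs per 10000 in dendritic-high and 22.9 ± 3.36 in dendritic-low spots (SD, n = 4 areas), and H2-Eb1 17.3 ± 1.96 and 17.9 ± 2.57. Cd74 was lower in dendritic-high spots on 4 of 4 areas, at 56.5 ± 6.26 against 72.5 ± 14.6. The 10 genes together were also lower on 4 of 4 areas, at 133.1 ± 11.8 against 156.5 ± 27.3. The 13 dendritic cell genes took only 5.00 to 6.56 UMIs per 10000 of an area, so these bins rest on few UMIs per spot. They include Ccr7, by which the study also marked a T-cell cluster, and the part of T-cells in these bins was not tested.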
